A study of Homo sapiens with 4 samples.

Results

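The peaks described here are all m6A peaks of the control list whose gene symbol has no line in the heat list, so they were chosen by the presence and absence of called peaks, and every value of these lists is given as a description with no test. They number 1295 peaks in 1108 genes, of 14367 control peaks in 7138 genes. These genes, called control only, make up 15.5% of the genes of the control list and hold 9.01% of its peaks, shares that the rule itself sets and from which nothing is read. The heat list holds 15472 peaks in 7112 genes, of which 1082 genes (15.2%) have no line in the control list. The remaining 6030 genes have lines in both lists, with 13072 control peaks, and serve as the comparison.

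The cells were CaSki, an established epithelial line from a cervical carcinoma that carries human papillomavirus. Control cells were grown at 37 °C, and heat-treated cells were held at 42 °C for 60 min before the RNA was taken. Each of the 2 conditions has 1 library of RNA captured with an m6A antibody kit (methylated RNA immunoprecipitation, MeRIP-seq) and 1 input library, so there is no replicate and no p-value is given for any difference. Of 8 epithelial marker genes, 3 have a peak in the control list (KRT8, CDH1 and TP63) and 6 in the heat list, and none of 4 immune markers has one in either. Among 5 fibroblast and endothelial markers, COL1A1 is in both lists, and CDH5, an endothelial cadherin, is itself a control-only gene. A peak list shows methylated RNA and not the amount of RNA, so a transcript that became less abundant and a transcript that lost methylation cannot be told apart, nor can fewer cells of a type and less RNA per cell.

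N6-methyladenosine is the most common internal modification of mRNA. It is deposited by a nuclear complex around METTL3 and METTL14, removed by FTO and ALKBH5, and bound by YTH proteins that act on the decay, translation and export of the transcript. Methylated adenosines gather near stop codons, in long internal exons and in the untranslated region that follows the coding sequence, and heat stress is known to change which transcripts are methylated and read. In MeRIP-seq, fragments bound by the antibody pile up into a region that may hold several methylated adenosines.

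No genome of the build of the peak lists (hg19) was used here, so no sequence of a peak is shown, and where in a transcript a peak lies (coding exon or untranslated region) was not analysed here. The promoters of the members were read instead from RefSeq windows of 300 bases (GRCh38.p14), from 250 bases before to 50 bases after the gene start. A window was found for 888 of the 1108 control-only genes and for 4949 of the 6030 genes in both lists, by gene identifier or symbol, with the first window taken where a gene had several. Pairs of the inverted GAA units repeated in the heat shock element bound by HSF1 were searched, which are shorter than a full element. The letters searched were GAANNTTC and TTCNNGAA, which read the same on both strands and can overlap. Windows of 78 control-only genes held at least 1 of them (8.78%, 95% Wilson interval 7.10% to 10.8%), beside 488 windows of genes in both lists (9.86%, 9.06% to 10.7%) and 13.5% of all 35116 windows. The members' median GC content was 65.0%, beside 66.7% in genes in both lists and 58.7% over all 35116 windows. As all windows also include several for each of 5191 genes, their 13.5% is not an equal comparison and nothing is read from it. The 3 windows below are shown because they hold the letters in strongly enriched or stress-related members, and each is printed 5′ to 3′ on the strand of its gene with the matches in capitals. DNAJA1 encodes an Hsp40 co-chaperone, and its window (chr9:33025023-33025322, plus strand) has 3 matches, of which 2 overlap. PARS2 encodes the mitochondrial prolyl-tRNA synthetase, with 2 matches (chr1:54764474-54764773, minus strand). SPTLC1 encodes a subunit of serine palmitoyltransferase, the first enzyme of sphingolipid synthesis, with 1 match (chr9:92115364-92115663, minus strand).
DNAJA1: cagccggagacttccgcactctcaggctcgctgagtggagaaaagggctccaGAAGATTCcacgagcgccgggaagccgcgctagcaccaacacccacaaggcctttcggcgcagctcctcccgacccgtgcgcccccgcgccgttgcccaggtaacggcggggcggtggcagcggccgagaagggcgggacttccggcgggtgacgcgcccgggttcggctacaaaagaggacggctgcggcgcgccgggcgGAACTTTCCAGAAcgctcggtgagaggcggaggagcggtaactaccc
PARS2: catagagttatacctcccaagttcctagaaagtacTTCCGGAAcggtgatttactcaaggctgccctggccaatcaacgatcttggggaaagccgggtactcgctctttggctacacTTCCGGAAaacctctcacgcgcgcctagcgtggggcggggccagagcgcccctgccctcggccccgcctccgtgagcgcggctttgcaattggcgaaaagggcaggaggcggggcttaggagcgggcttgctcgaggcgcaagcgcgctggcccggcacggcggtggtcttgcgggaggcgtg
SPTLC1: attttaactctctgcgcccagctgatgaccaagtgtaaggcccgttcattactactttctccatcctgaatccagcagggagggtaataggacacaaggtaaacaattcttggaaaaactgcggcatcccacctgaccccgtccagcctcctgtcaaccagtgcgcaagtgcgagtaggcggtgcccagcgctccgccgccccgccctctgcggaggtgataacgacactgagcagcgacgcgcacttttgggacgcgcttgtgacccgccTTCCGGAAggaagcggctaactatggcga
The matches are letters in a window and were not tested as binding sites.

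Control-only genes had few peaks. Of the 1108 genes, 947 had 1 control peak (85.5%, 83.3% to 87.4%), 138 had 2 (12.5%), 20 had 3 (1.81%) and 3 had 4 (0.271%), a mean of 1.17 per gene. Genes in both lists had a mean of 2.17 control peaks and up to 25, with 1 peak in 46.7% of them (45.4% to 47.9%) and 4 or more in 14.6%. Read the other way, 25.2% of the genes with 1 control peak were control only, then 8.08% of those with 2, 2.54% of those with 3, 0.783% of those with 4 and 0 of 502 genes with 5 or more. The rule asks that no peak of the whole gene be listed after heat, so peak number and membership are not independent. Genes listed in heat only had 1 peak in 77.3% of cases and up to 9 peaks.

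**Figure D1:**
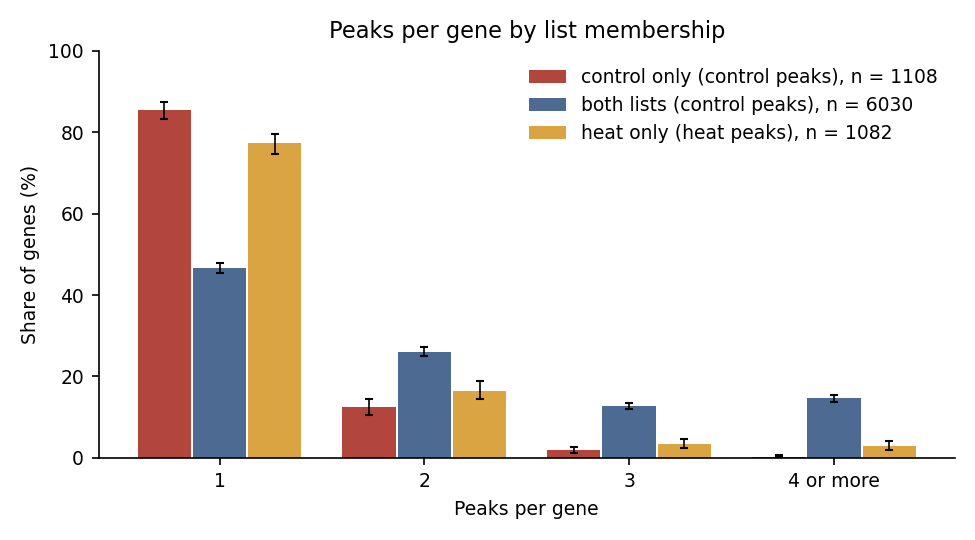
Share of genes (%, y axis) with 1, 2, 3 and 4 or more peaks (x axis), for the 1108 control-only genes, the 6030 genes in both lists (control peaks) and the 1082 heat-only genes; error bars are 95% Wilson intervals, which cover the counting of genes only. Of the control-only genes 85.5% had 1 peak, beside 46.7% of the genes in both lists.

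Peaks of control-only genes were of middle length. Their median was 656 bases (interval of the median 618 to 691, quartiles 369 and 1101, range 18 to 6654), and that of the control peaks of genes in both lists was 522 bases (506 to 536, quartiles 189 and 1133). Short peaks were fewer among the members. Only 161 of the 1295 peaks (12.4%) were 200 bases or shorter, beside 3528 of 13072 (27.0%), while 34.1% lay between 500 and 1000 bases, beside 22.4%. Peaks over 2000 bases made up 8.11%, beside 10.1%. Per gene the order turned around. The summed peak length was 771.5 bases in control-only genes and 1473.5 in genes in both lists, and among genes with 1 control peak the medians were 713 bases (666 to 767) and 998 bases (969 to 1040).

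The significance score, minus 10 times the log10 of the peak caller's p-value, and the fold enrichment over its background are the authors' values for each peak within 1 list. The median score of the members' peaks was 117, beside 299, and the median fold was 37.4 (36.5 to 39.2), beside 44.2 (43.6 to 44.6). Of the control-only genes, 428 (38.6%) had a best score under 100, beside 8.57%, and 789 (71.2%) had only peaks with a listed false discovery rate of 100%, beside 23.8%. At the other end, 16 members (1.44%) reached the score of 3100 at which the values level off, beside 1303 genes in both lists (21.6%). Ordered by best score, the control-only share went from 48.7% in the lowest decile of the genes to 15.3% in decile 4 and 0.982% in the highest. Low scores were not particular to these genes. In the heat list, peaks of heat-only genes had a median score of 108, beside 221 for heat peaks of genes in both lists. The median best score per gene was 120 in heat-only genes and 129 in control-only genes.

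**Figure D2:**
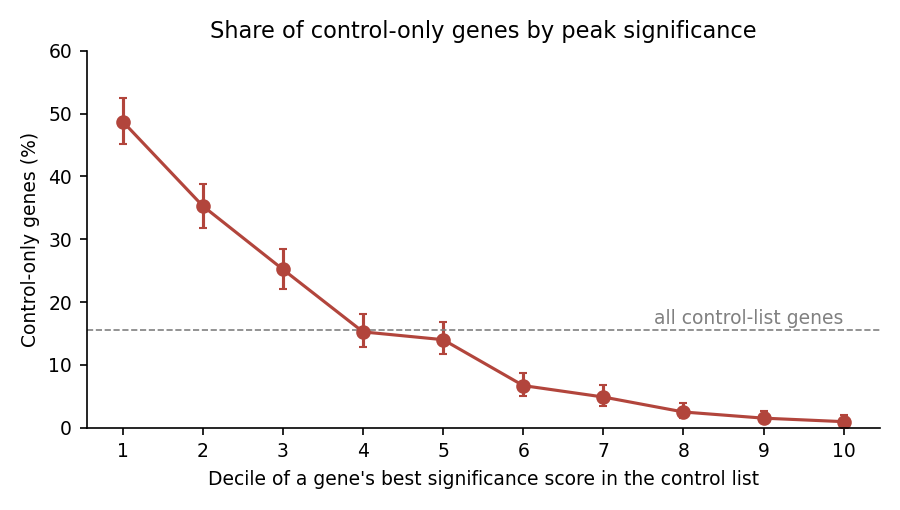
Share of control-only genes (%, y axis) in each decile of the control-list genes by their best significance score (x axis, 1 is the lowest); bars are 95% Wilson intervals and the dashed line is the 15.5% of all control-list genes. The share was 48.7% in the lowest decile and 0.982% in the highest.

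Within quintiles of the significance score, the members' median peak lengths were close to those of other genes. The 3760 genes with 1 control peak were cut by score into 5 quintiles of 752 genes. Scores ran from 50.0 to 94.1 in the lowest and from 1498 to 3226 in the highest, so significance is only roughly matched. In the lowest quintile the median length was 535 bases (487 to 578) in control-only genes and 493 (417 to 558) in genes in both lists, and in the middle quintile 955 (827 to 1128) and 932 (834 to 1010). In the highest quintile it was 1506 (1164 to 2173) and 1582.5 (1494 to 1696), with overlapping intervals in all 5 quintiles. Median fold enrichment was higher in members in all but the highest quintile. From the lowest up it was 28.7 beside 24.0, 41.0 beside 35.7, 58.8 beside 52.5 and 83.6 beside 80.4. The intervals overlapped in the third quintile (54.3 to 65.0 and 48.2 to 54.5) and the fourth (71.0 to 108 and 72.6 to 88.1). In the highest it was 122 beside 125, where 34 of the 752 genes were control only.

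**Figure D3:**
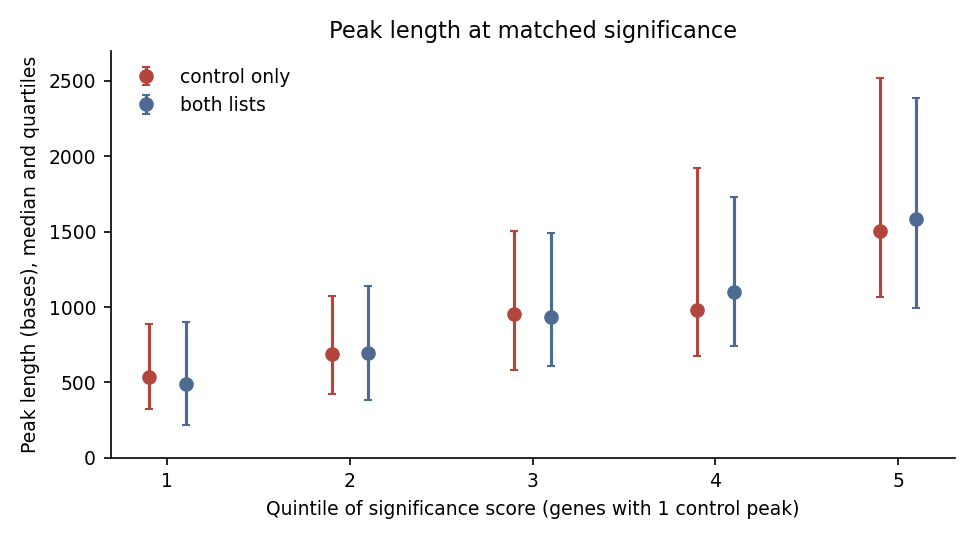
Median peak length in bases (points, y axis) with quartiles (bars) for control-only genes and genes in both lists, in quintiles of the significance score of genes with 1 control peak (x axis, 1 is the lowest). Lengths grew with the score in both sets, from 535 and 493 bases to 1506 and 1582.5 bases.

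The most enriched members were FAM46B, PCYOX1, ZNF814 and HYAL1. FAM46B, a noncanonical poly(A) polymerase family gene, had a peak of 1938 bases at 415-fold (chr1:27331511-27333448, score 3100) and a smaller one of 436 bases at 82.8-fold. PCYOX1, prenylcysteine oxidase, had 1 peak of 2337 bases at 316-fold (chr2:70503866-70506202). ZNF814, a zinc finger gene, had 1 peak of 434 bases at 315-fold (chr19:58386161-58386594). HYAL1, a lysosomal hyaluronidase, had 1 peak of 118 bases at 314-fold (chr3:50349695-50349812). These 4 peaks run from 118 to 2337 bases. ZBTB41 (290-fold), PAFAH2 (274-fold), SECISBP2L (267-fold), GBX1 (267-fold), SLC25A32 (256-fold) and PARP6 (253-fold) followed. PAFAH2 degrades oxidised phospholipids, and SLC25A32 carries folate and flavin into mitochondria. GBX1 is a homeobox factor, and PARP6 is a mono-ADP-ribosyltransferase. The scores of these 10 genes lay between 873 and 3100.

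Members at the score of 3100 covered a wide span of folds. FURIN, the convertase that cleaves proproteins in the Golgi, had a peak of 2173 bases at 245-fold (chr15:91424516-91426688). PDF, the mitochondrial peptide deformylase, had one of 599 bases at 175-fold, and DDX19A, an RNA helicase of mRNA export, one of 1445 bases at 170-fold. ESRP2, an epithelial splicing regulator, had one of 1769 bases at 162-fold. PPM1G, a nuclear phosphatase, had one of 416 bases at 34.1-fold, under the members' median of 37.4.

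Only 3 members had 4 control peaks. CDC5L, a core subunit of the spliceosome, had peaks of 128, 100, 219 and 327 bases, with folds of 56.1, 22.6, 37.0 and 20.7. PELI3, a Pellino ubiquitin ligase of innate immune signalling, had 3 short peaks of 167, 153 and 133 bases and 1 of 1766 bases with scores from 50.4 to 231. The 4 lines of PLCXD1 are pairs on chromosomes X and Y, where this pseudoautosomal gene has the same sequence, so they stand for fewer sites. DHRSX, with 3 lines, likewise has 1 of them as the Y copy of an X peak. Among the 20 members with 3 lines, named because of that number after it was seen, TNFAIP2, a TNF-inducible gene, had scores of 926, 2051 and 3100 over peaks of 491, 625 and 2221 bases. CASP9, the initiator caspase of the mitochondrial death pathway, had 3 peaks at 113-, 57.0- and 39.2-fold. METTL13, which methylates the translation factor eEF1A, had 3 at 65.5-, 25.0- and 15.3-fold. BSN, best known as a presynaptic scaffold, had the longest peak of all members, 6654 bases at 35.6-fold, beside peaks of 885 and 2077 bases. In CASP9 and BSN the longest peak had the highest fold, and in CDC5L and TNFAIP2 a shorter one did.

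The longest single peaks belonged to SAMD9 (6255 bases), GMPPB (5040), NATD1 (4520), GALNT10 (4162) and NACAD (3979). SAMD9, an interferon-inducible antiviral factor, reached the score of 3100 at 92.8-fold, and GMPPB, which makes the GDP-mannose used in glycosylation, had 241-fold. GALNT10 starts mucin-type O-glycans and had 55.6-fold. The shortest single peaks were those of ZNF16 (18 bases), PSG9 (24), CSNK1G3 (42), XRN2 (45) and PRCP (51), with folds from 28.5 in XRN2, a nuclear exoribonuclease, to 60.5 in ZNF16. All 5 of these had scores between 52.6 and 276.

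The lists begin at a score of 50. The members closest to it were UBL7, BOLA3 and PCSK1, each with a score of 50.1 and folds of 21.4, 26.7 and 27.6. Just outside, MX1, an interferon-induced GTPase, had a heat peak with a score of 50.0 and a control peak of 75.1 with the same length of 687 bases. SETD6 and CDC16 had heat scores of 50.1 and control scores of 139 and 82.8.

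Zinc finger genes stood out in number, above all on chromosome 19. Of 278 control-list genes with a ZNF symbol, many of which encode DNA-binding repressors of the KRAB family, 67 were control only (24.1%, 19.4% to 29.5%), beside 15.5% of all genes, and 13 ZNF genes were listed in heat only. Among ZNF genes with 1 control peak the share was 35.6% (28.9% to 42.9%), beside 25.2%. The longest peak of these members had a median of 1508 bases, beside 731 over all members, and their folds ran from 19.5 to 315. The length in ZNF genes in both lists was not compared, so long peaks may not be particular to the ZNF members. ZNF581 had a peak of 1071 bases at 169-fold with a score of 3100, ZNF239 one of 1634 bases at 209-fold and ZNF45 one of 2577 bases at 233-fold. The ZNF genes had 1.62 control peaks on average, beside 2.01 over all control-list genes. Their members gathered on chromosome 19. Leaving out ZNF genes took the control-only genes there from 84 to 44, and the control-list genes from 554 to 448. The largest such fall on another chromosome was from 42 to 37 control-only genes, on chromosome 10. On chromosome 7 the count stayed at 53, while control-list genes went from 352 to 334. The 24.1% is therefore not shared evenly by ZNF genes across the chromosomes.

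Genes of mitochondria were also above the share of all genes. Cellular component terms for the mitochondrion marked 670 control-list genes, of which 123 (18.4%, 15.6% to 21.5%) were control only, and with 1 control peak the share was 26.5% (22.4% to 31.1%), near the 25.2% of all such genes. A further 152 genes with mitochondrial terms were listed in heat only, more than the 123 members. Extracellular terms marked 1194 genes, of which 195 (16.3%) were control only, and 296 further genes were listed in heat only. The mitochondrial ribosomal proteins had 8 of 34 (23.5%, 12.4% to 40.0%), with 9 more listed in heat only. MRPS34 reached a score of 3100 at 55.3-fold over 640 bases, MRPL45 had 75.7-fold over 710 bases, MRPL57 45.4-fold over 2028 bases and MRPS33 21.0-fold over 361 bases. SIRT3, the main mitochondrial deacetylase, had a peak of 1689 bases at 84.0-fold, of which 146 bases overlapped a heat peak assigned to its neighbour RIC8A. PARS2 had a peak of 2293 bases at 109-fold. Genes with translation terms, those for post-translational modification left out, stood at 32 of 199 (16.1%, 11.6% to 21.8%), near the 15.5% of all genes. Among them was EIF2B1, a subunit of the exchange factor that recharges eIF2, with a peak of 893 bases at 160-fold.

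Membrane transport and metabolism gave further members. Of 126 genes with an SLC symbol 25 were control only (19.8%, 13.8% to 27.7%), 24 solute carriers and the antisense RNA SLC25A21-AS1, and all 25 had 1 control peak. Without the antisense RNA the share was 19.2% (13.3% to 27.0%). They included the creatine transporter SLC6A8 (79.3-fold), the Golgi transporter SLC35C2 (82.4-fold) and the sodium-potassium-chloride cotransporter SLC12A2 (68.4-fold). Among the TMEM genes 19 of 80 were control only (23.8%, 15.8% to 34.1%), with TMEM206, a proton-activated chloride channel, at 149-fold. Lipid metabolism held 53 of 313 genes (16.9%, 13.2% to 21.5%), near the 15.5% of all genes, and 22.9% of its genes with 1 control peak, beside 25.2%. Its members included SPTLC1 at 229-fold over 589 bases and ACACA, which makes malonyl-CoA for fatty acid synthesis, at 86.4-fold over 2448 bases. The term for oxidation and reduction marked 40 of 174 genes (23.0%, 17.4% to 29.8%) and purine metabolism 14 of 58 (24.1%, 15.0% to 36.5%). Both lie outside the function classes and were named with their values known, as the highest of the single process terms and pathways examined. Those process terms ran down to 11.9%, and those pathways to 9.84% for endocytosis. The purine interval also holds the 15.5% of all genes. PQLC2, a lysosomal exporter of cationic amino acids, had a peak of 729 bases at 108-fold, and LRRC8B, a subunit of volume-regulated anion channels, one of 2165 bases at 155-fold.

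Some large classes had a smaller share of members. Genes of the cytoskeleton and adhesion were control only in 49 of 524 cases (9.35%, 7.15% to 12.1%), genes of the nucleolus in 44 of 444 (9.91%, 7.47% to 13.0%), genes of viral processes in 32 of 301 (10.6%), genes of cell junctions in 53 of 490 (10.8%) and genes of apoptosis in 51 of 471 (10.8%). These classes also had more control peaks per gene, 2.68 for the cytoskeleton, 2.61 for junctions and 2.41 for the nucleolus, beside 2.01 over all control-list genes. With 1 control peak their shares were 20.1%, 21.6% and 16.1%, beside 25.2%. Their members included ARPC5, a subunit of the Arp2/3 complex (57.5-fold over 425 bases), DFFA, the inhibitor of the caspase-activated nuclease (80.1-fold over 2664 bases), and RBBP8, which starts the resection of DNA breaks (169-fold over 892 bases). CHAMP1, which aligns chromosomes on the spindle, had a peak of 2584 bases at 71.7-fold.

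Classes of nuclear regulators gave many members, at shares on both sides of the 15.5% of all genes. Transcription terms marked 209 of 1475 genes (14.2%), chromatin terms 39 of 316 (12.3%), RNA splicing and processing 57 of 437 (13.0%) and the cell cycle 67 of 573 (11.7%, 9.31% to 14.6%). DNA replication and repair stood at 57 of 351 (16.2%) and at 28.9% of its genes with 1 control peak, with the polymerase subunits POLE3 (148-fold over 1567 bases) and POLD4 (46.3-fold over 1255 bases). MATR3, a nuclear matrix protein that binds RNA, had peaks of 1089 and 367 bases at 188- and 40.6-fold. METTL16, which methylates U6 and the MAT2A transcript with m6A, had 1 peak of 1439 bases at 98.5-fold (chr17:2322452-2323890), so an m6A methyltransferase is itself among the members. MTF2, a Polycomb subunit, had 1 peak of 866 bases at 96.5-fold. Ubiquitin and protein degradation, with 88 of 562 genes (15.7%), lay at the share of all genes. It included ANAPC13, a subunit of the anaphase-promoting complex (155-fold over 704 bases), and TRIM13, a ubiquitin ligase of the endoplasmic reticulum (108-fold over 1369 bases).

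**Figure D4:**
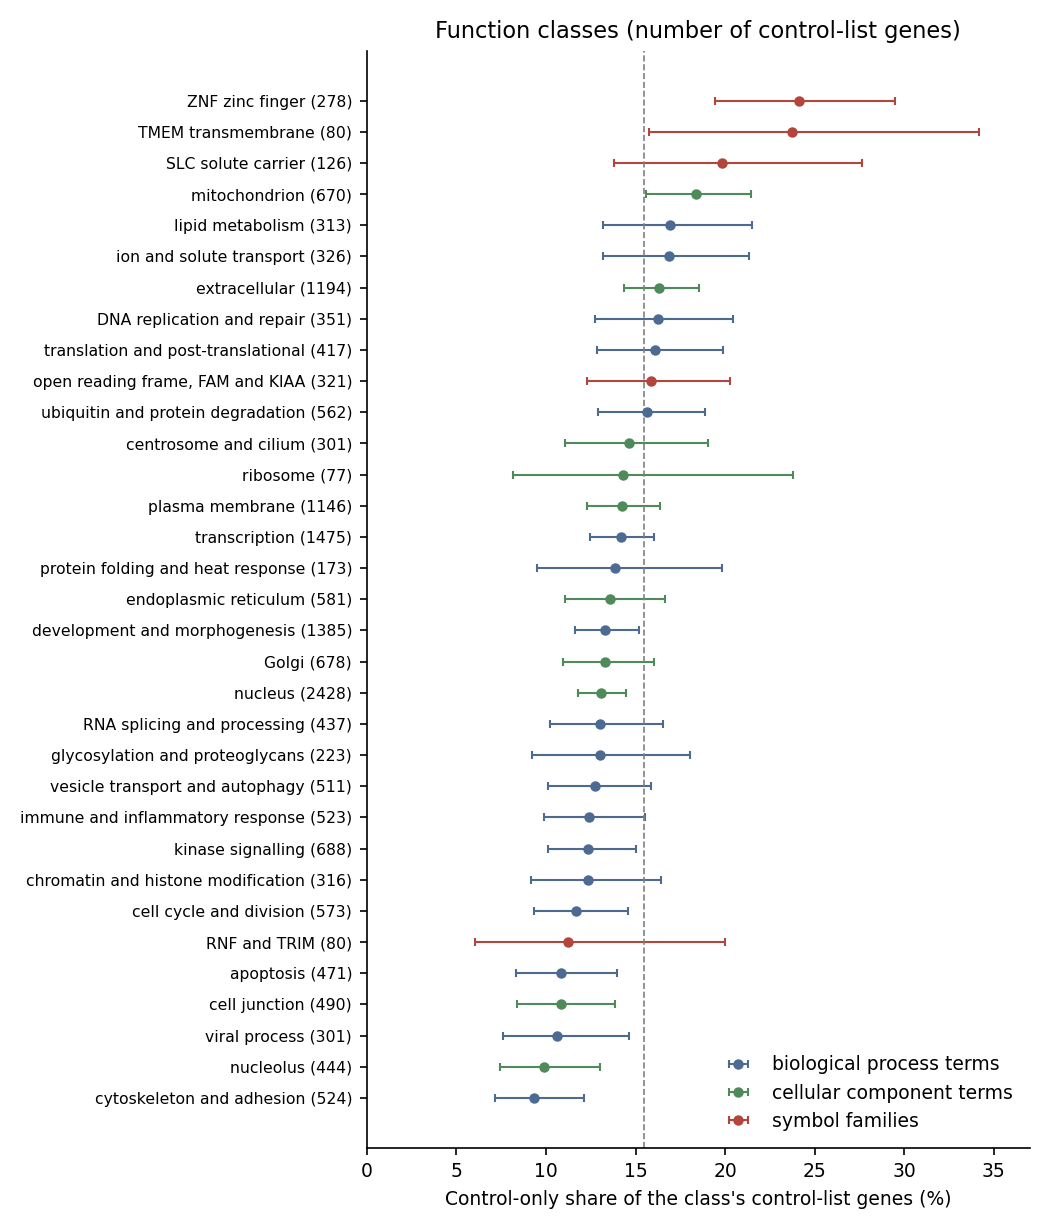
Control-only share (%, x axis) of the control-list genes of each function class with at least 75 such genes (y axis, number in brackets), with 95% Wilson intervals; the dashed line is the 15.5% of all genes. ZNF genes stood highest at 24.1% and cytoskeleton and adhesion lowest at 9.35%; classes share genes, the translation class also holds genes with post-translational modification terms, and the SLC class holds 1 antisense RNA.

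Protein folding and the response to heat marked 173 control-list genes, of which 24 (13.9%, 9.50% to 19.8%) were control only, near the 15.5% of all genes, and 23.5% of those with 1 control peak, beside 25.2%. A further 36 genes were listed in heat only. Of 23 DNAJ genes, which encode co-chaperones of Hsp70, DNAJA1, DNAJC3 and DNAJB11 were members (13.0%). DNAJA1 had peaks of 178 and 538 bases at 22.8- and 61.5-fold, DNAJC3, an inhibitor of eIF2 kinases, 1 of 954 bases at 61.4-fold, and DNAJB11, of the endoplasmic reticulum, 1 of 160 bases at 34.8-fold. TMX3, a thiol oxidoreductase of the endoplasmic reticulum, had 142-fold over 732 bases. Of 12 DUSP phosphatase genes 1 was control only (8.33%). It was DUSP1, the phosphatase that switches off stress-activated MAP kinases, with 1 peak of 1043 bases at 42.4-fold. ADM, the vasodilator peptide adrenomedullin, is named from the extracellular class and had 1 peak of 1683 bases at 45.7-fold with a score of 2971.

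Words of the description column, picked after their values were seen, gave shares on both sides of the 15.5% of all genes. Of 11 nudix hydrolase genes, which clear nucleoside diphosphate derivatives, 7 were control only (63.6%, 35.4% to 84.8%): NUDT2, NUDT14, NUDT1, NUDT11, NUDT19, NUDT9 and NUDT8. Descriptions with the word mitochondrial gave 30 of 114 (26.3%), methyltransferase 12 of 59 (20.3%) and polymerase 12 of 55 (21.8%). Kinase gave 45 of 340 (13.2%) and receptor 43 of 305 (14.1%). A biological process term was missing for 187 members, and 921 (83.1%) had one, beside 86.7% of the genes in both lists.

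Most members lay far from any listed heat peak. The rule largely sets this, because no member's own gene has a heat line, so nothing is read from the distances. Only 8 of the 1295 peaks overlapped a heat peak, which was then assigned to another symbol. The peak of FNTB, a farnesyltransferase subunit, lay wholly (1415 bases) under a heat peak named for the readthrough gene CHURC1-FNTB, and C15ORF37 overlapped a heat peak of C15orf37, the same name in another case, by 1134 bases. TMEM200B shared 622 bases with EPB41, FAM187A 921 with CCDC103, FLJ00104 954 with hCG_1980662, SIRT3 146 with RIC8A, STARD5 70 with IL16 and TRIM54 43 with UCN. Asking for no heat peak over at least 0.5 of the control peak left 1106 of the 1108 genes. The other 1287 peaks lay a median of 64.5 kb from the nearest heat peak (quartiles 19.7 and 172 kb), with 77 (5.98%) within 5 kb, whereas 2775 control peaks of genes in both lists that overlapped no heat peak lay 5.28 kb away, 48.5% of them within 5 kb, as their own gene had a heat peak.

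The caller numbered its peaks along the genome, and the heat list holds only some of the numbers. For 1274 members' peaks with a listed heat peak on either side, a median of 10 heat numbers between those neighbours were not listed (quartiles 6 and 16), so an unlisted heat peak could lie at the same place. For 6 peaks there was no such number. ZNF581 had the highest score of these (chr19:56155919-56156989, score 3100, 169-fold), followed by NACAD (chr7:45121707-45125685, 3979 bases, 132-fold) and C19orf31 (999 bases, 29.9-fold). The others were the smaller peak of TMEM200B (138 bases, 18.1-fold), FUT6, a fucosyltransferase (681 bases, 41.0-fold), and REEP5, which shapes the endoplasmic reticulum (449 bases, 18.8-fold). For ZNF581 and NACAD, both strong peaks, the heat numbering thus leaves no unlisted peak between the neighbours.

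Along the genome 786 members stood alone, with neighbours in the control list that were not members, and 322 formed 142 runs of adjacent control-list genes. As 15.5% of the control-list genes are members, some members would be adjacent in any order. Nothing is therefore read from the number of runs. The longest run held 8 genes on chromosome 19, ZNF529, ZNF567, ZNF850, ZNF527, ZNF571, ZFP30, ZNF607 and ZNF573, with 10 control peaks from 21.4- to 86.4-fold over 1193 kb (chr19:37038236-38231095) and 0 heat peaks inside. A run of 5 zinc finger genes lay at chr19:53206887-53445847 (ZNF611, ZNF468, ZNF888, ZNF816-ZNF321P and ZNF816), with folds from 25.9 to 65.0. Runs of 5 unrelated genes lay on chromosome 2 (KCTD18, SGOL2, NIF3L1, ORC2 and FAM126B, 6 peaks up to 152-fold) and on chromosome 5 (SREK1IP1, CWC27, ADAMTS6, PPWD1 and TRAPPC13, 7 peaks up to 118-fold). None of these 4 runs held a listed heat peak. The rule largely sets this, because no gene of a run has a heat line, so nothing is read from it.

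Leaving out chromosome Y, with 1 control-list gene, the control-only share by chromosome ran from 8.44% on chromosome 20 (19 of 225 genes, 5.47% to 12.8%) to 23.1% on chromosome 13 (24 of 104, 16.0% to 32.0%) and 22.6% on chromosome 4 (48 of 212, 17.5% to 28.7%). Genes listed in heat only numbered 31 on chromosome 20, 13 on chromosome 13 and 22 on chromosome 4. Chromosome 19 stood at 15.2% with 84 of 554 genes, and at 9.82% when its ZNF genes were left out. The share of this chromosome near that of all genes therefore joins a high share of ZNF genes to a low share of the rest.

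**Figure D5:**
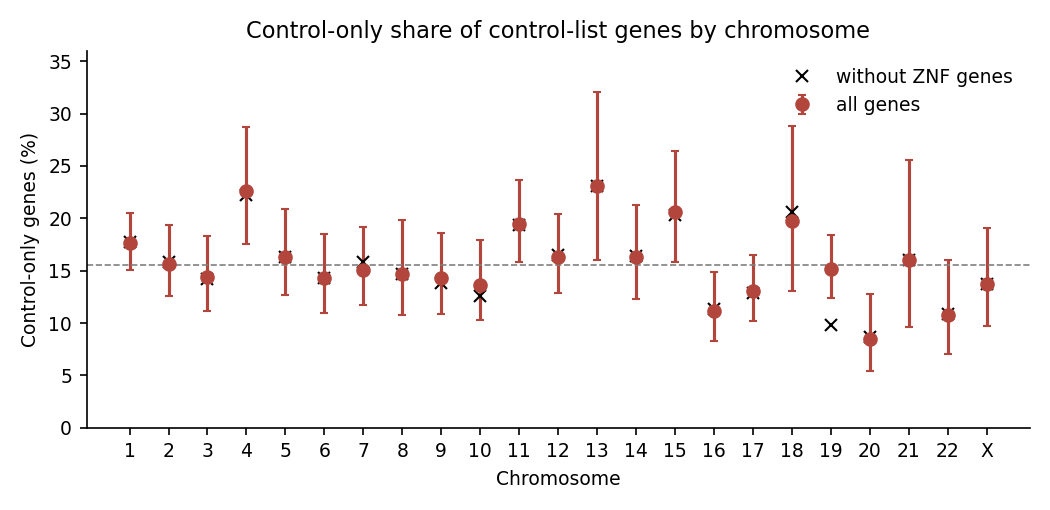
Control-only share (%, y axis) of the control-list genes of each chromosome (x axis, chromosome Y with 1 gene left out) with 95% Wilson intervals (bars), and the same without ZNF genes (crosses); the dashed line is the 15.5% of all genes. The share ran from 8.44% on chromosome 20 to 23.1% on chromosome 13, and chromosome 19 moved from 15.2% to 9.82% without ZNF genes.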

How the data were processed

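The authors deposited 1 peak list per condition for immunoprecipitated RNA, with position, length, gene and function terms of each peak. The submitters' processing notes name cutadapt 1.9.3, STAR and the build hg19. Peak names begin with MACS, and which version and parameters of the caller were used is not given in the sources. Per the file headers, the authors gave each peak a score (a p-value on a minus log10 scale, multiplied by 10), a fold enrichment (ratio to background) and a false discovery rate in percent. Peaks were listed from a score of 50, a p-value of 1e-05. Depth is unknown, since no read totals were used. Starts were raised by 1, so that coordinates are 1-based.

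Genes were placed by symbol (Python 3.11.15, pandas 2.3.3). Classes are 46 patterns (18 of process terms, 10 of component terms, 18 symbol families) that share genes. Shares carry 95% Wilson intervals and medians order-statistic intervals, which cover counting only; genes are not replicates. The placement was tested on simulated lists. The members, classes and named genes were chosen with earlier results of these data known. Named genes were the 10 highest folds among scores above the control-list median of 267, genes with 4 or more peaks, the 5 longest and 5 shortest single peaks, up to 4 per class by score, the 3 lowest scores with 3 genes just outside, and peaks with no unlisted heat number. One line of the heat list was empty and not used here, so at most 1 membership could differ. The alternatives are 9 other rules for presence in a list.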

Additional observations from a re-analysis of the deposited data

How the results depend on the processing

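The number of control-only genes, their share with 1 control peak, their median peak length and median fold were recomputed under 9 other rules. Equal numbers of top peaks, matching by gene identifier and the rules that also asked for no overlap with a heat peak (at least 1 base, or most of the control peak) kept all 4 within 1.5 times or inside their intervals, with 1100 to 1255 genes. With a fold above the pooled median of 36.5 required in both lists there were 1974 genes, 82.9% with 1 peak. Their peaks had medians of 826.5 bases and 59.6-fold, and 617 of the 1108 genes remained. This cut fell unevenly, keeping 8488 of 14367 control peaks but 6405 of 15472 heat peaks. Listed folds were lower after heat: genes in both lists had a median of 32.6-fold there, beside 44.2-fold in control. How far this difference sets the 1974 genes was not tested. With a score above the pooled median of 228 in both lists the values were 91.9%, 915 bases and 75.7-fold (1323 genes, 341 shared). With that score in control alone and any heat line counted as present, there were 341 genes, 97.1% with 1 peak, 914 bases and 70.3-fold. With a false discovery rate under 100% in both lists the values were 92.9%, 934 bases and 78.3-fold (1218 genes, 319 shared), and with 7183 top peaks from each list 93.6%, 954 bases and 80.5-fold (1177 genes, 305 shared). Of these 5 rules, the 4 applied to both lists brought in 872 to 1357 genes that are not among the 1108, and the rule on control alone brought in 0. The fold rule keeps only peaks above 36.5-fold, so its higher median fold is set by the rule itself. The others keep peaks of higher score or lower false discovery rate. Among control-only genes with 1 peak, medians rose from 535 bases and 28.7-fold in the lowest score quintile to 1506 bases and 122-fold in the highest. Beyond that, the cause of the longer and more enriched peaks was not tested. ZNF, SLC, TMEM and mitochondrial genes were above, and cytoskeleton, nucleolus, viral process, cell junction and apoptosis genes below, the share of all genes under the main rule and all 9 others. These classes are ones named above for high or low shares, and every rule reuses the same 2 lists. The rules on equal numbers, gene identifier and overlap kept 1100 to 1108 of the 1108 genes. The repeated direction was thus largely set in advance. Under the main rule the SLC interval (13.8% to 27.7%) also holds the 15.5% of all genes. No paired analysis was possible because each condition has 1 immunoprecipitated library and no test was made. Depth was unknown.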
